A study of Mus musculus with 23 samples.

Results

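The 43 genes described here encode proteins of the muscle sarcomere and of muscle calcium handling. They were chosen by symbol from a deposited expression table of 21264 mouse genes, and the myosin heavy chains were left out of the list. The rule uses no measured value, but the list was drawn up with earlier results of these data known. By role, 12 are thin filament genes, 11 belong to the thick filament and its M-band, 9 to the Z-disc, titin and the cytoskeleton, 8 to calcium handling, and 3 to sarcomere assembly and energy supply. All 43 were found in the table.

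The study asked what gain and loss of Notch1 do in iPAX3 cells, which are myogenic progenitors derived from mouse pluripotent stem cells, and in the satellite cells that they give after transplantation. RNA was sequenced from 23 libraries. In culture there were 4 libraries of wild-type iPAX3 control cells and 3 of N1OE cells, which overexpress NICD1, the intracellular active fragment of the Notch1 receptor. Labelled as donor-derived satellite cells and re-isolated from tissue were 9 libraries of wild-type control cells, 4 of N1OE cells and 3 of N1KO cells, in which Notch1 was knocked out. All groups carry the iPAX3 background. The labels do not say what drives the NICD1 transgene, how old or of which strain the hosts were, or whether replicates came from separate cultures or animals, so that p-values measure the spread between these libraries, which may be technical. Cultured and re-isolated cells were made into libraries with different kits, and setting and kit cannot be told apart.

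The sarcomere is the repeated contractile unit of striated muscle. Thin filaments of actin, with tropomyosin and the troponin complex lying along them, are anchored at the Z-disc, and thick filaments of myosin are held at the M-band, with titin spanning from one to the other. Contraction starts when the voltage sensor of the cell membrane opens the ryanodine receptor and calcium leaves the sarcoplasmic reticulum, binds troponin and frees the actin for myosin, and it ends when the SERCA pump takes the calcium back. These genes are switched on when myoblasts leave the cell cycle and differentiate, under the MyoD and MEF2 factors, and active Notch signalling is known to hold myoblasts and satellite cells in the undifferentiated state.

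The promoters of 6 genes on which the results turn are shown first, as the 250 bases before the start given by RefSeq for the GRCm38.p6 build (the assembly known as mm10), 5′ to 3′ on the strand of the gene. Capitals mark matches to the E-box CANNTG, to which MyoD factors bind, to the CArG box of serum response factor, to the MEF2 site and to the TATA box TATAAA. The windows are from Acta1 and Actc1, the skeletal and cardiac actins, Klhl41, an assembly factor, Atp2a1, the SERCA1 calcium pump, Tnnt1, slow troponin T, and Tpm2, beta-tropomyosin.
Acta1, chr8:123894776-123895025, minus strand: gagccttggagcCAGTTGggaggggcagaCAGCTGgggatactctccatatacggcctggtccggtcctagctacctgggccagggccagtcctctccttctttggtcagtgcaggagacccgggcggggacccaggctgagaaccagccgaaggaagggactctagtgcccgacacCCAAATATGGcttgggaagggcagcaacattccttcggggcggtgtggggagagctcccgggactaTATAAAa
Actc1, chr2:114052876-114053125, minus strand: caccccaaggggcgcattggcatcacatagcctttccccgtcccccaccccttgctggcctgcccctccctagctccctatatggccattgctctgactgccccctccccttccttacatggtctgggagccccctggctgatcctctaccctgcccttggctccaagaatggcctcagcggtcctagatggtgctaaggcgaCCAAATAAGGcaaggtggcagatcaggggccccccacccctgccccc
Klhl41, chr2:69669870-69670119, plus strand: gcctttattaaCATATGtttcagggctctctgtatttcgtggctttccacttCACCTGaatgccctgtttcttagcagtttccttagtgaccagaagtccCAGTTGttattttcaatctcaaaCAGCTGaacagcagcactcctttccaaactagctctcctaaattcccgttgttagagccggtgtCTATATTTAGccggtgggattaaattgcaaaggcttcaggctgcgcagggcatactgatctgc
Atp2a1, chr7:126463074-126463323, minus strand: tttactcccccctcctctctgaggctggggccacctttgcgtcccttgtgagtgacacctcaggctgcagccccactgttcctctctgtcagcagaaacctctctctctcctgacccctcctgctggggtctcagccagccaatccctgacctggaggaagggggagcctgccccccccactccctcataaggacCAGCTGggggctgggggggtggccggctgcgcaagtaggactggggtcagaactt
Tnnt1, chr7:4515976-4516225, minus strand: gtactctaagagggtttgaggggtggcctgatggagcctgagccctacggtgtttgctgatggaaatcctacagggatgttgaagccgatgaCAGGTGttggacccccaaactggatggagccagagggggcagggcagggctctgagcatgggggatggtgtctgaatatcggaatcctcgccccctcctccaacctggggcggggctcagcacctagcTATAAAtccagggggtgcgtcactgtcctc
Tpm2, chr4:43523555-43523804, minus strand: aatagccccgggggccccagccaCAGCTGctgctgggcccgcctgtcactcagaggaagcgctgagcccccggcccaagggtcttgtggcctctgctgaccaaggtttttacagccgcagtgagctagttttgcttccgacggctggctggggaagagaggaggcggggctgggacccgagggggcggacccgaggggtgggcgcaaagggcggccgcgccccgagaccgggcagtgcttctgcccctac

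In these letters Acta1 holds E-boxes 238 and 221 bases before the start, a CArG box at 73 and TATAAA at 7 bases, while Actc1 holds a CArG box at 47 bases and no E-box in this window. Klhl41 has 4 E-boxes, the nearest 127 bases before its start, and a MEF2 site at 63 bases. Atp2a1 has 1 E-box at 55 bases, Tnnt1 has 1 at 158 bases with TATAAA at 30 bases, and Tpm2 has 1 at 227 bases. The GENCODE M21 annotation places some gene starts elsewhere. Its Acta1 start, 123894751, lies downstream of the window. For Actc1 (114053548) and Tnnt1 (4516382) it lies upstream, so that these windows fall inside the annotated genes. For Tpm2 (43523765) and Atp2a1 (126463108) it lies within the window. Distances therefore hold for the RefSeq starts only. RefSeq windows were at hand for 32 of the 43 genes, some with more than 1 start, which gave 36 windows. Motifs were searched on both strands, except TATAAA, which was searched on the strand of the gene only. CANNTG was present in 83.3% of these and in 66.2% of all 32851 windows of the same length. Its form CAGCTG was in 47.2% against 13%, the CArG box in 16.7% against 1.47%, the MEF2 site in 13.9% against 2.92%, and CATTCCT, the M-CAT element bound by TEAD factors, in 16.7% against 4.51%. TATAAA (5.56% against 7.59%) and TGGGAA, the core bound by the Notch partner RBPJ (19.4% against 21.6%), were about as frequent as elsewhere. Every CAGCTG is also a CANNTG. A match describes letters, not a bound site, and no binding was measured.

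Values are those deposited as log2 CPM, in which counts are scaled to the size of the library, and are given here as CPM. Whole reads could be recovered from them in every library. The libraries held 11637817 to 29154176 reads in the listed genes. Of the 9 re-isolated controls, 5 (replicates 1, 4, 7, 8 and 9) carry the suffix GoF in their column headers and 4 (replicates 2, 3, 5 and 6) do not. The labels do not explain the suffix, which the 4 cultured controls and cultured N1OE replicate 1 also carry. The headers of the other two cultured N1OE libraries and of all re-isolated N1OE and N1KO libraries lack it. In the marked controls the number of genes with exactly 1 read was 4.17 to 5.91 times the number with exactly 2 reads, and in N1OE it was 4.18 to 6.82 times. In N1KO the ratio was 1.25 to 1.40, and unmarked controls had a ratio of 1.08 to 1.5. Marked controls and N1OE therefore resembled each other in this count of rare transcripts, as did unmarked controls and N1KO. Because of this split the members' re-isolated comparisons with controls are given against each set as well as against all 9. These are bulk samples, in which fewer cells of a type and less RNA per cell cannot be told apart.

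Notch1 itself was read first, since it checks the labels. It was at 61.3, 78.4, 71 and 105 CPM in cultured controls 1 to 4 and at 369.8, 297 and 322 CPM in cultured N1OE replicates 1 to 3, with no overlap. Re-isolated marked controls had 14.9, 88.9, 27.5, 52 and 72.9 CPM, unmarked controls 136, 174, 156 and 149.8 CPM, N1OE 247, 257, 151 and 98.1 CPM and N1KO 15.6, 19.8 and 52.6 CPM. The N1KO libraries lay below all unmarked controls and within the range of the marked ones. Of the re-isolated N1OE libraries, replicates 1 and 2 lay above all 9 controls and replicates 3 and 4 lay within their range. The labels do not say which part of the gene the deletion covers, and reads outside it would not check the label. Pax7, which marks satellite cells, was at 0 to 0.178 CPM in cultured controls, 0.0508 to 0.891 CPM in cultured N1OE, and 11.5 to 61.6, 51.8 to 113, 91.8 to 154 and 19.9 to 153 CPM in the marked controls, unmarked controls, N1OE and N1KO.

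Together the 43 genes took up 0.31 to 1.42% of the reads in cultured controls and 0.173 to 0.289% in cultured N1OE. After re-isolation the share was 0.242 to 0.566% in marked controls, 0.676 to 1.18% in unmarked controls, 0.309 to 0.563% in N1OE and 0.229 to 0.71% in N1KO. The 2 cultured groups did not overlap in this share, nor did the 2 sets of re-isolated controls. N1OE overlapped the marked set only, and N1KO overlapped both sets. Within groups the genes moved together: cultured control 3 was the lowest of its group for 31 of the 41 members that reached 1 CPM there, N1KO replicate 2 for 36 of 41, and cultured N1OE replicate 1 was the highest of its group for 34 of 35.

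**Figure D1:**
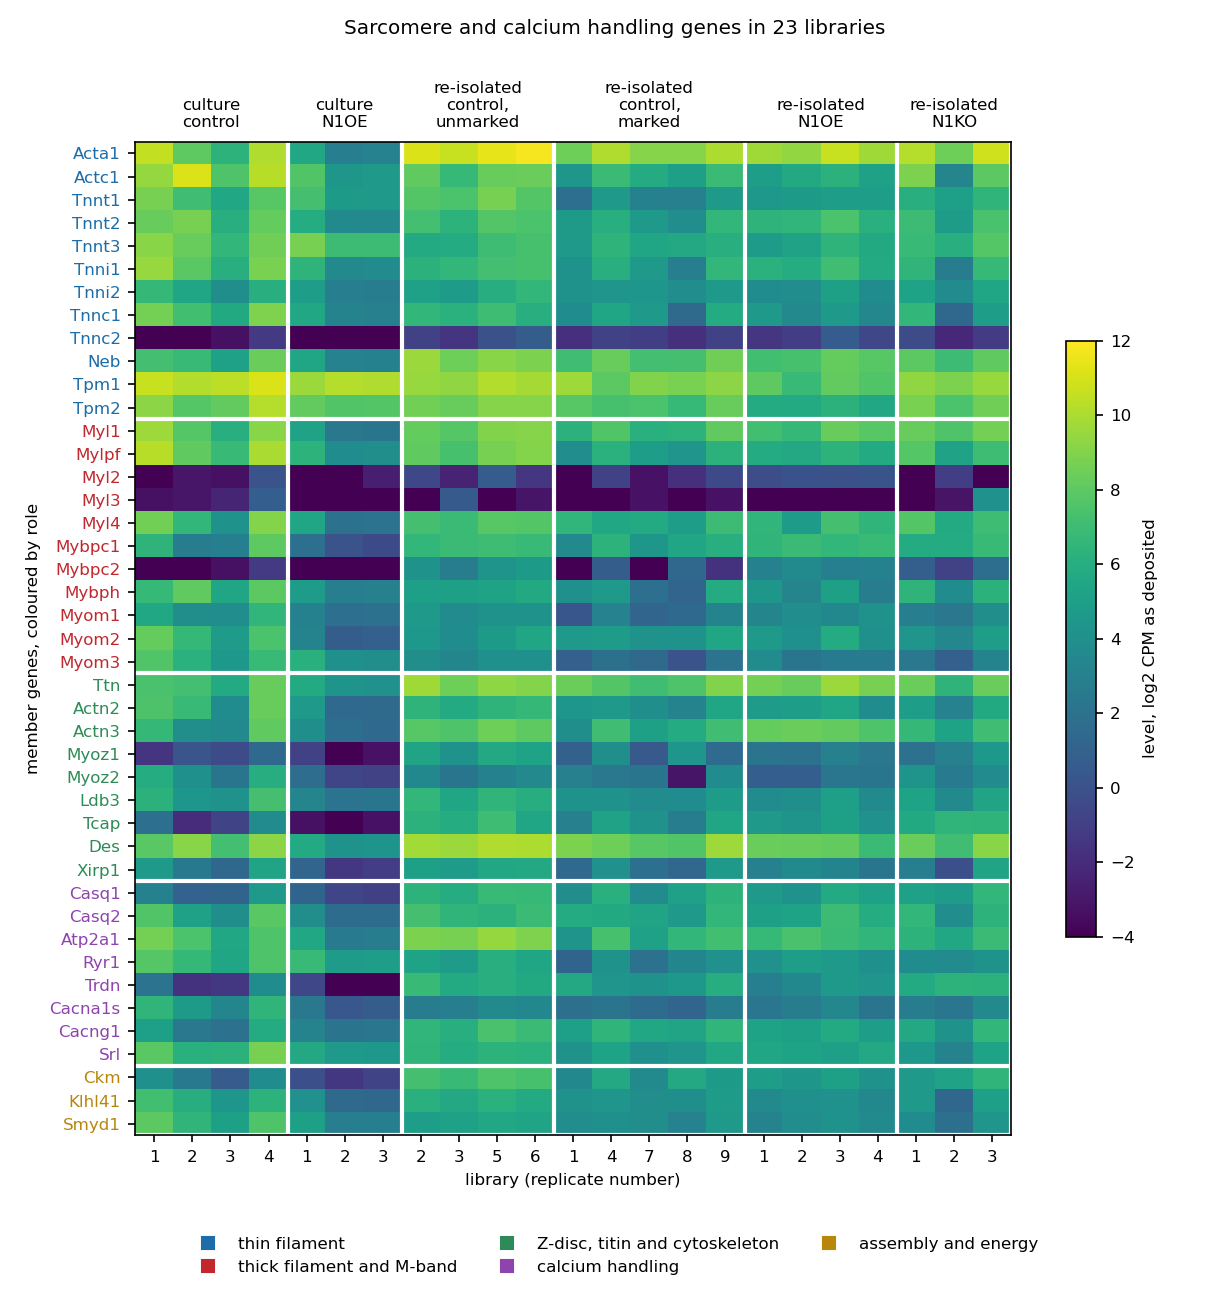
The level of each of the 43 genes (vertical axis, coloured by role) in each of the 23 libraries (horizontal axis, by group and replicate number), as deposited log2 CPM on a colour scale from dark (low) to yellow (high) that ends at -4 and 12. Cultured N1OE replicates 2 and 3 are dark in most genes, the 4 unmarked re-isolated controls are brighter than the 5 marked ones, and cultured control 3 and N1KO replicate 2 are dark within their groups.

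Levels of different genes were compared per kilobase of exon. In cultured controls the highest were Actc1 at 683 ± 557, Mylpf, the fast regulatory light chain, at 617 ± 514, and Acta1 at 479 ± 439 CPM per kilobase (mean ± SD, n = 4). In cultured N1OE the first places were held by the tropomyosin Tpm1 at 157 ± 33.6 and by fast troponin T, Tnnt3, at 142 ± 106 CPM per kilobase (n = 3). After re-isolation Acta1 came first in every group, with 1638 ± 506 in unmarked controls (n = 4), 464 ± 210.2 in marked controls (n = 5), 652 ± 278 in N1OE (n = 4) and 742 ± 495 CPM per kilobase in N1KO (n = 3). At the other end stood Tnnc2, fast troponin C, with 0, 0, 0.0464 and 0.357 CPM in cultured controls and no read in cultured N1OE. It reached 0.242 to 0.491 CPM in marked controls, 0.292 to 1.57 in unmarked controls, 0.309 to 1.55 in N1OE and 0.165 to 0.731 in N1KO, and never passed the filter of the tests (1 CPM or more in 3 or more libraries of the fit). Of its 800 exon bases, 592 (74.0%) are shared with Ube2c on the other strand, and the strand setting of the counting is not given in the sources used here. In all, 16 members overlap an exon of the other strand, Mybph over 49.9%, Atp2a1 over 21.9%, Cacna1s over 20.0% and Ckm over 15.5% of their exon bases, so that part of their reads could belong to the partner or be lost.

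In culture, sarcomere and calcium handling transcripts were lower in N1OE cells than in controls. Of the 36 members that could be tested, 14 fell and none rose (limma, Benjamini-Hochberg adjusted p under 0.05 over all genes), where 6.03% of all 12314 tested genes fell. All 36 differences were negative, with a median of -3.48 on the log2 scale beside 0.07 over all tested genes, and 30 had an unadjusted p under 0.05. For 21 of all 43 members, among them the untested Myl3 and Tcap, every N1OE library lay below every control. This pattern was seen in 13.7% of all tested genes. By role, 4 of 11 thin filament genes, 4 of 8 thick filament and M-band genes, 2 of 7 Z-disc, titin and cytoskeleton genes, 2 of 7 calcium handling genes and 2 of 3 assembly and energy genes fell. The 7 members not tested were Myl2, Myl3, Tnnc2, Mybpc2, Myoz1, Tcap and Trdn. All 4 controls carry the suffix GoF and of N1OE replicate 1 alone does, so that suffix and genotype largely go together here, and replicate 1 was the highest N1OE library in 34 of 35 members, as given above. The count rests on single libraries. It was 24 without control replicate 3 and 5, 2 and 7 without controls 1, 2 and 4, and it was 8 without N1OE replicate 1 and 0 without N1OE replicate 2 or 3. N1OE replicates 2 and 3 differed far less from each other than other pairs did (chi-square per degree of freedom 3.31, against up to 35.0 in that group and 48.3 to 155 among the controls), and with both averaged into 1 library no member passed, a setting chosen after seeing the data. The count was also 0 with all listed genes tested, without the filter on low values, and 1 with limma-voom on the recovered reads. With a block for replicate number it was 30. Same-numbered cultured libraries carry matching header numbers, and the labels do not say whether they were prepared together.

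**Figure D2:**
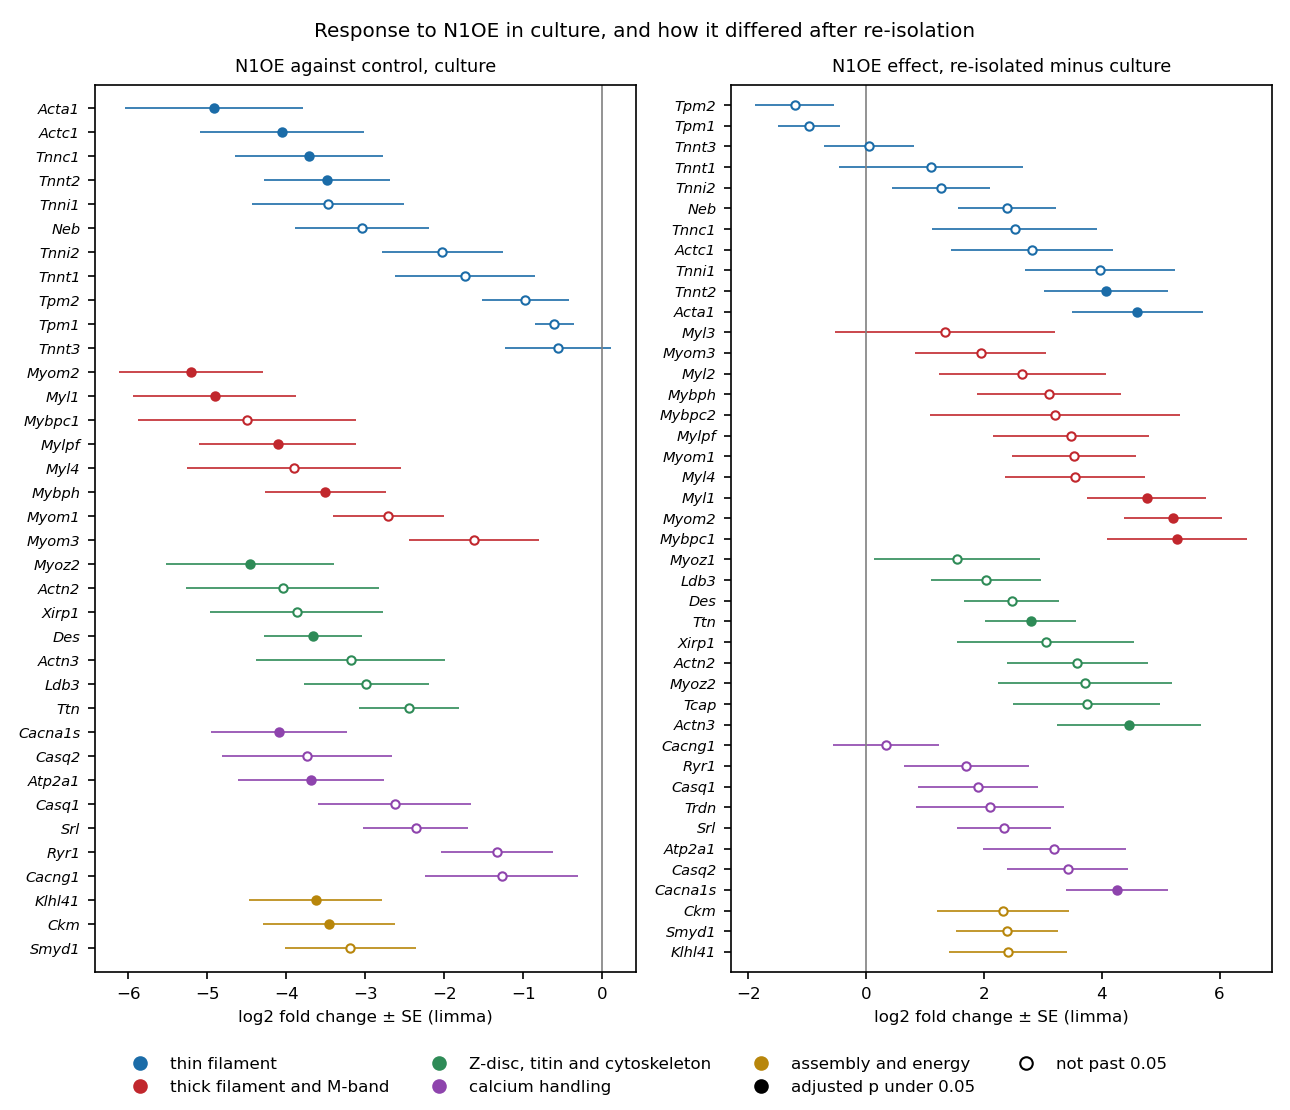
The log2 fold change of N1OE against control in culture for the 36 tested members (left) and the N1OE effect after re-isolation minus that in culture for 42 members (right), by role. Points are limma estimates with bars of 1 SE, filled where the adjusted p is under 0.05 (14 on the left, 8 on the right); all points on the left lie below 0, and on the right only Tpm1 and Tpm2 do.

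Among the thin filament genes, Acta1 was at 1493, 264, 80.7 and 1108 CPM in cultured controls 1 to 4 and at 46.9, 7.24 and 8.58 CPM in N1OE replicates 1 to 3. All N1OE libraries were below all controls, and Acta1 fell by 4.92 ± 1.13 on the log2 scale (limma adjusted p = 0.0368). Actc1, the actin of the heart and of embryonic muscle, was at 703, 2302, 196 and 1219.5 CPM in controls and at 200.3, 22.2 and 23.9 CPM in N1OE. It fell by 4.06 ± 1.04 on the log2 scale (limma adjusted p = 0.04995), although N1OE replicate 1 lay just above control 3. The coding sequences of both actins are 86.2% identical over 1134 bases with a longest shared run of 29 bases, and the read length and the treatment of reads that match both are not given in the sources used here.

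Troponin T binds the complex to tropomyosin, and its cardiac and embryonic form Tnnt2 was at 310.2, 427, 69.4 and 298 CPM in controls and 60.4, 12.3 and 11.4 CPM in N1OE. It fell by 3.48 ± 0.79 on the log2 scale (limma adjusted p = 0.0362) with no overlap. Slow Tnnt1 stood at 412, 138, 47.3 and 229.8 CPM in controls against 154, 26.6 and 25.7 CPM in N1OE, and fast Tnnt3 at 565, 309, 95.1 and 364 against 418, 128 and 128 CPM. Neither of these passed, with log2 differences of -1.74 ± 0.88 (limma adjusted p = 0.212) and -0.56 ± 0.67 (limma adjusted p = 0.602), and for both N1OE replicate 1 lay inside the control range. Tnnc1, the calcium-binding troponin C of slow and cardiac muscle, was at 409, 144, 52.9 and 489.6 CPM in controls and 48.4, 8.87 and 7.92 CPM in N1OE, every N1OE library below every control. It fell by 3.71 ± 0.94 on the log2 scale (limma adjusted p = 0.0485). The tropomyosins, which are also made in non-muscle forms, showed small differences that did not pass: Tpm1 was at 1593, 1162, 1337 and 2158 CPM in controls and 767, 1169.8 and 1113 CPM in N1OE.

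Of the thick filament, Myl1, the fast essential light chain, was at 798, 222, 69.5 and 579 CPM in controls and 37.1, 5.22 and 4.57 CPM in N1OE. The groups did not overlap, and Myl1 fell by 4.91 ± 1.03 on the log2 scale (limma adjusted p = 0.0298). Myom2, a myomesin that links thick filaments at the M-band, fell by 5.21 ± 0.91 on the log2 scale (limma adjusted p = 0.0173), Mylpf fell by 4.11 ± 0.99 on the log2 scale (limma adjusted p = 0.042), and Mybph, a myosin-binding protein, fell by 3.51 ± 0.77 on the log2 scale (limma adjusted p = 0.0335). Myl4, the embryonic and atrial light chain, was at 393, 97.1, 17.8 and 530.1 CPM in controls and 44.8, 4.09 and 4.16 CPM in N1OE. Its log2 difference was close to that of Mylpf, at -3.90 ± 1.36 (limma adjusted p = 0.102), but its controls ranged widely and overlapped N1OE replicate 1.

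Titin, the giant spring between Z-disc and M-band, was at 172, 150.001, 54.8 and 305 CPM in controls and 55, 19.5 and 17.1 CPM in N1OE. Its log2 difference of -2.45 ± 0.63 (limma adjusted p = 0.0512) lay just beyond the threshold, and N1OE replicate 1 was level with control 3. Des encodes desmin, the intermediate filament that ties Z-discs together, and was at 238, 582, 146 and 605 CPM in controls and 54.5, 17.4 and 19 CPM in N1OE. With controls and N1OE well apart, Des had the smallest p-value of the list and fell by 3.66 ± 0.62 on the log2 scale (limma adjusted p = 0.0162). Myoz2, a Z-disc protein of slow and cardiac fibres, fell by 4.47 ± 1.06 on the log2 scale (limma adjusted p = 0.041).

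Of the calcium genes, Atp2a1 was at 409, 173, 46.7 and 193 CPM in controls and 45.8, 6.04 and 6.65 CPM in N1OE, and Casq2, the cardiac and slow form of calsequestrin that buffers calcium in the reticulum, at 199, 35.3, 15.7 and 236 against 15.2, 3.15 and 3.1 CPM. Both were lower in every N1OE library than in any control. Atp2a1 fell by 3.69 ± 0.92 on the log2 scale (limma adjusted p = 0.047), while Casq2 did not pass at -3.74 ± 1.08 (limma adjusted p = 0.0663). Cacna1s, the voltage sensor, fell by 4.10 ± 0.86 on the log2 scale (limma adjusted p = 0.0298). Ryr1, the calcium release channel that it opens, was at 223, 102, 42.5 and 189 CPM in controls and 116, 28.3 and 29.6 CPM in N1OE, with overlap and a log2 difference of -1.34 ± 0.71 (limma adjusted p = 0.23). Ckm, muscle creatine kinase, was low throughout, at 16.3, 5.43, 1.49 and 13.4 CPM in controls and 0.891, 0.315 and 0.559 CPM in N1OE. It fell by 3.46 ± 0.84 on the log2 scale (limma adjusted p = 0.0431) with no overlap, and Klhl41, which stabilises sarcomere proteins, fell by 3.63 ± 0.84 on the log2 scale (limma adjusted p = 0.0383).

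Pathway genes outside the list were also counted. Of 25 tested other sarcomere and Z-disc genes 14 fell and none rose, with a median log2 difference of -3.41. Fhl1 was at -4.20 ± 0.47 (limma adjusted p = 0.00444), Tmod1, which caps thin filaments, at -4.28 ± 0.64 (limma adjusted p = 0.0113), and Pdlim3 at -4.16 ± 0.63 (limma adjusted p = 0.0113). Of 18 other excitation and calcium genes 3 fell, which were Scn4a, Hrc and Jph1, with a median of -0.97 over the 18, and of 7 muscle energy genes 3 fell. Of 6 myosin heavy chains 1 fell, the embryonic Myh3 at -4.01 ± 0.99 (limma adjusted p = 0.0451), and of 7 myogenic transcription factors 2 fell, Myod1 at -2.81 ± 0.55 (limma adjusted p = 0.0241) and Myog at -3.43 ± 0.87 (limma adjusted p = 0.0486), with no rise in any of these lists. Markers of other cell types were read beside these. Summed over 9 smooth muscle and pericyte genes they came to 192 to 823 CPM in controls and 96.9 to 285 CPM in N1OE. Of 5 tested genes 2 fell and 0 rose past the threshold. The median log2 difference of the 5 was 1.62, so the sum and the median went in opposite directions. The 8 satellite cell genes summed to 379.9 to 798 CPM in controls and 1057 to 1114 CPM in N1OE, with no overlap, and 1 of 7 tested rose. The 6 endothelial genes came to 9.23 to 11 and 2.71 to 4.16 CPM and the 6 macrophage genes to 3.08 to 11.6 and 4.5 to 7.68 CPM. Summed over 6 fibro-adipogenic genes they came to 2.37 to 61.3 CPM in controls and 0.441 to 4.5 CPM in N1OE, with Lum at 0 in all N1OE libraries. The 10 cardiomyocyte genes summed to 15.6 to 259.7 and 12.4 to 42.5 CPM, with Myl7 and Tbx5 at 0 in all 7 libraries. Of the 4 that were tested 1 rose and 1 fell. The part of these markers in the members' result was not tested.

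After re-isolation the largest contrast in these genes lay between the marked and unmarked sets of wild-type controls. Of 40 tested members 32 were lower in the GoF-marked controls and none higher, against 12.5% of all tested genes lower. For 21 members every marked control lay below every unmarked one, as for 12.9% of all tested genes. The median log2 difference was -1.75, beside -0.02 over all tested genes. The calls covered 8 of 11 thin filament genes, 7 of 9 of the thick filament and M-band, 8 of 9 of the Z-disc, titin and cytoskeleton, 6 of 8 calcium genes and all 3 of assembly and energy. The sets are given by the headers and are not a labelled treatment. With the sets taken from the sample descriptions, where replicate 7 lacks the mark, no member passed, and the members called against the marked and unmarked sets were then 1 and 3 for N1OE and 0 and 0 for N1KO, where the headers gave 7, 21, 2 and 8. With all listed genes tested and the header sets, the count was 19 for marked against unmarked controls, 3 and 12 for N1OE and 0 and 1 for N1KO.

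In what follows values run over marked controls 1, 4, 7, 8 and 9, unmarked controls 2, 3, 5 and 6, N1OE replicates 1 to 4 and N1KO replicates 1 to 3. Tnnt1 was at 3.59, 24.7, 8.26, 7.82 and 24.7 CPM in marked controls, 213, 179.9, 418 and 211 CPM in unmarked controls, 23.4, 26.1, 30.7 and 31 CPM in N1OE and 65.5, 32.2 and 88.2 CPM in N1KO. The unmarked controls stood above all other libraries, N1KO lay between the sets, and the N1OE libraries lay close to the highest marked ones. Marked controls fell by 4.48 ± 0.45 on the log2 scale (limma adjusted p = 7.90e-07) relative to unmarked ones. Atp2a1 was at 19.3, 164, 36.4, 95 and 144 CPM in marked controls, 450.2, 413, 716 and 479.99 in unmarked controls, 107, 167, 121 and 91.5 in N1OE and 80.5, 48.7 and 121 CPM in N1KO. Again the unmarked controls stood apart from the rest, and the marked ones fell by 2.86 ± 0.47 on the log2 scale (limma adjusted p = 0.000176). Ckm had 11.2, 49.8, 12.5, 50.3 and 26.5 CPM in marked controls, 154, 113, 193 and 163 in unmarked controls, 30.6, 21.7, 34.7 and 17.9 in N1OE and 25.5, 37.2 and 90.3 in N1KO. Its unmarked controls were above all other libraries, with marked controls at -2.62 ± 0.43 (limma adjusted p = 0.000195).

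Acta1 was at 352, 1079, 550.04, 555 and 1032 CPM in marked controls, 2315, 1599, 2687 and 3464 CPM in unmarked controls, 847, 686, 1633 and 841 CPM in N1OE and 1199.6, 352 and 1869 CPM in N1KO. No marked control reached the lowest unmarked one, and Acta1 fell by 1.89 ± 0.44 on the log2 scale (limma adjusted p = 0.00349) in the marked set. Actc1 had 22.4, 119, 57.8, 33.9 and 119.6 CPM in marked controls, 278, 105, 317 and 322 in unmarked controls, 29.5, 52.1, 77.8 and 35.5 in N1OE and 459, 9.47 and 246 in N1KO. Marked controls 4 and 9 lay above unmarked control 3, and the log2 difference of -2.02 ± 0.74 (limma adjusted p = 0.0507) did not pass. N1KO replicate 2 had the lowest Actc1 of all 16 re-isolated libraries and N1KO replicate 1 the highest. Tnnt2 had 26.7, 64, 24.1, 14.3 and 98.2 CPM in marked controls, 150.1, 80.1, 208 and 177 in unmarked controls, 84.7, 92.8, 179 and 72 in N1OE and 127, 28.6 and 173 in N1KO. Marked control 9 lay above unmarked control 3, and the marked set was lower by -2.02 ± 0.51 (limma adjusted p = 0.00673) on the log2 scale. Tnnc1 had 13.4, 42.4, 25.4, 2.79 and 56.6 CPM in marked controls, 94.7, 75.6, 129 and 67.6 in unmarked controls, 24, 11.5, 24.7 and 10.6 in N1OE and 94.5, 2.59 and 31.7 in N1KO. Here the sets did not overlap, N1OE lay with the marked controls, and N1KO spread from the lowest to the unmarked level; the log2 difference between the sets was -2.24 ± 0.77 (limma adjusted p = 0.0385). Tnnt3 had 24.6, 85, 45.2, 50.6 and 66.9 CPM in marked controls, 54.8, 56.7, 133 and 164 in unmarked controls, 27.7, 36.8, 83.4 and 52.9 in N1OE and 113, 64.5 and 219 in N1KO. Its sets overlapped, and the difference of -0.85 ± 0.42 (limma adjusted p = 0.152) did not pass. Per kilobase, fast Tnnt3 exceeded slow Tnnt1 by 3.77 to 9.52 times in marked controls, and in unmarked controls the ratio was 0.359 to 1.08.

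Myl1 was at 76.9, 203, 70.2, 80 and 268 CPM in marked controls, 302, 219, 503 and 545 CPM in unmarked controls, 142, 100.04, 309.5 and 225 CPM in N1OE and 313, 196 and 406 CPM in N1KO. Myl4 had 92.5, 47.7, 55.5, 31.5 and 123 CPM in marked controls, 155, 121, 232 and 209 in unmarked controls, 91.5, 28.5, 153 and 87 in N1OE and 208, 54.3 and 133 in N1KO. For both light chains marked control 9 lay above unmarked control 3, and the marked set was lower by -1.63 ± 0.42 (limma adjusted p = 0.00728) and -1.48 ± 0.45 (limma adjusted p = 0.0206) on the log2 scale. Mylpf was at -3.16 ± 0.50 (limma adjusted p = 0.000127). Mybpc2, the fast myosin-binding protein C, had 0, 1.56, 0, 2.61 and 0.262 CPM in marked controls, 18.5, 6.97, 19.1 and 26 in unmarked controls, 8.13, 12.1, 7.56 and 8.25 in N1OE and 1.74, 0.496 and 3.44 CPM in N1KO. It had no read in 2 marked controls, so that its fitted log2 difference of -5.58 ± 0.91 depends on the prior count.

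Titin had 338, 212, 136, 197 and 497 CPM in marked controls, 828, 348, 617 and 532 in unmarked controls, 408, 311, 787 and 422 in N1OE and 329.6, 84 and 328 in N1KO. The sets overlapped, and the marked one was lower by -1.15 ± 0.42 (limma adjusted p = 0.0493) on the log2 scale. Desmin had 468, 353, 231, 199 and 807 CPM in marked controls, 896, 779, 1085 and 1047 in unmarked controls, 329, 307, 286 and 121 in N1OE and 332, 135 and 576 in N1KO. Marked control 9 lay just above unmarked control 3, every N1OE and N1KO library lay below the unmarked controls, and the marked set was lower by -1.39 ± 0.42 (limma adjusted p = 0.0195). Actn3, the fast alpha-actinin that crosslinks actin at the Z-disc, had 15.9, 139, 34.8, 58.2 and 135 CPM in marked controls, 234, 196, 354 and 262 in unmarked controls, 293, 330.5, 283 and 192 in N1OE and 100.3, 38.3 and 137 in N1KO. In Actn3 the N1OE libraries stood with the unmarked controls and not with the marked ones, which were lower by -2.16 ± 0.48 (limma adjusted p = 0.00279). Ryr1 had 2.18, 18.6, 3.89, 9.94 and 17.3 CPM in marked controls, 38.3, 29, 66.3 and 42 in unmarked controls, 16.9, 29.7, 24.4 and 16.2 in N1OE and 13.5, 13 and 17.8 in N1KO. The marked set was lower by -2.43 ± 0.49 (limma adjusted p = 0.00116) with no overlap. Casq2 had 56.4, 51.9, 40.8, 25.2 and 97.6 CPM in marked controls, 153, 89.7, 79 and 120.5 in unmarked controls, 34.5, 38.3, 123 and 60.4 in N1OE and 97, 14.5 and 79.7 in N1KO. Its sets overlapped, and the difference of -1.11 ± 0.48 (limma adjusted p = 0.0942) did not pass.

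Markers of several cell types moved with the sets. The 6 fibro-adipogenic genes, of which Dcn had the largest counts, summed to 1356 to 9897 CPM in marked and 161 to 945 CPM in unmarked controls. Of these 6, 1 passed as higher. Summed over the same genes, N1OE had 567 to 1269 CPM and N1KO 4549 to 14207 CPM. The 6 macrophage genes summed to 61.8 to 552 and 36.6 to 126 CPM in the sets, to 22.8 to 118 CPM in N1OE and to 149 to 516 CPM in N1KO. The 8 satellite cell genes summed to 1482 to 2081 CPM in marked and 2145 to 2773 CPM in unmarked controls, with no overlap, and 3 were lower and 1 higher in the marked set. Of 4 tested cardiomyocyte genes 3 were lower, with sums of 10.3 to 29.5 and 34.4 to 53.6 CPM, also apart. Of 9 smooth muscle and pericyte genes 2 were lower and 1 higher, and of 6 endothelial genes 1 was lower and 1 higher. No fibro-adipogenic or macrophage marker was at 0 in all libraries of a set, and the part of these markers in the results was not tested, nor was that of the ratio of genes with 1 and 2 reads. The other pathway lists were also lower in the marked set: 15 of 29 other sarcomere and Z-disc genes were lower and 1 higher, 12 of 19 other excitation and calcium genes lower, 7 of 10 energy genes lower and 1 higher, and 6 of 9 myogenic transcription factors lower, among them Myod1 at -3.23 ± 0.55 (limma adjusted p = 0.000264) and Myf6 at -3.32 ± 0.64 (limma adjusted p = 0.000894). Of the myosin heavy chains the slow Myh7 was lower at -4.49 ± 1.34 (limma adjusted p = 0.0182), and the fast Myh1 was higher at 1.52 ± 0.36 (limma adjusted p = 0.00391).

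**Figure D3:**
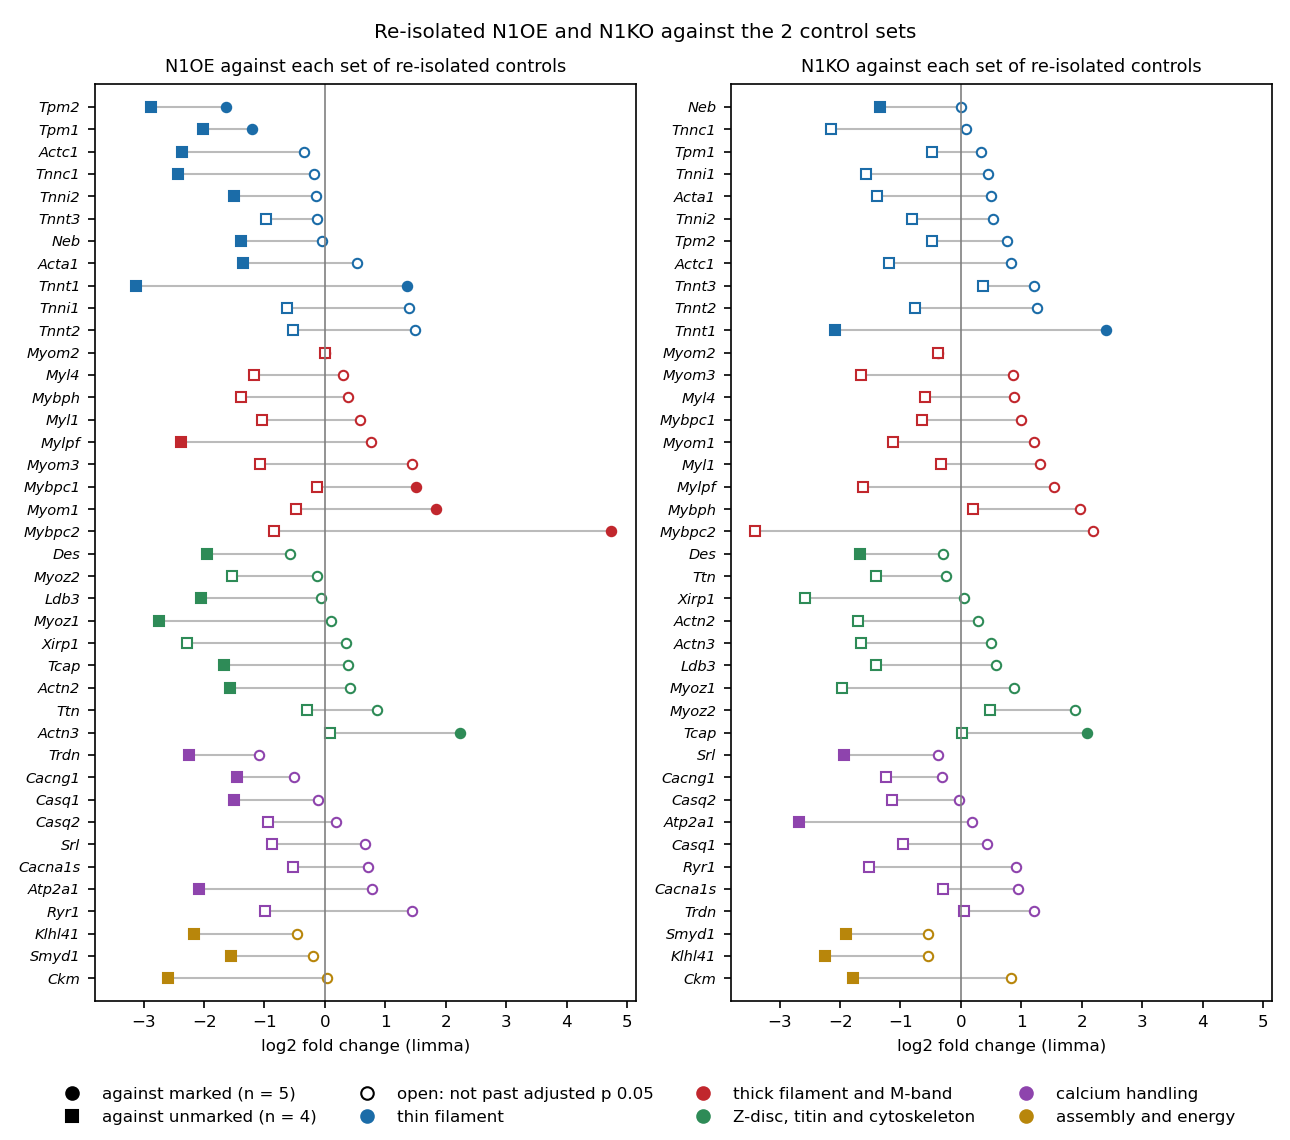
The log2 fold change of re-isolated N1OE (left) and N1KO (right) against marked controls (circles, n = 5) and unmarked controls (squares, n = 4) for the 40 tested members, by role, filled where the limma adjusted p is under 0.05. Nearly all squares lie left of the circle of the same gene; Tpm1 and Tpm2 in N1OE have both filled symbols below 0, and Tnnt1 has filled symbols on either side of 0 in both panels.

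Re-isolated N1OE cells had less of both tropomyosins than either set of controls. Triadin passed as lower against all 9 controls and against the unmarked set, but not against the marked set. Against all 9 controls 3 of 40 tested members fell and none rose, where 3.29% of all tested genes fell, and the median member difference was -0.52 beside 0.06 over all tested genes. Tpm2 was at 58.3, 55.8, 78.9 and 47.7 CPM in N1OE, against 227, 159, 174, 107 and 309 in marked controls, 386, 317, 537 and 546 in unmarked controls and 439.7, 180.4 and 377 CPM in N1KO. Its 4 N1OE libraries were below all 12 other re-isolated libraries, and Tpm2 fell by 2.19 ± 0.39 on the log2 scale (limma adjusted p = 0.00145). Tpm1 was at 264, 116, 289 and 205 CPM in N1OE, 796, 245, 497, 434 and 589 in marked controls, 737, 643, 1126 and 924 in unmarked controls and 637, 452 and 746 CPM in N1KO. Marked control 4 lay among the N1OE libraries, and Tpm1 fell by 1.57 ± 0.35 on the log2 scale (limma adjusted p = 0.00954). Trdn, which anchors calsequestrin to the ryanodine receptor, was at 7.51, 11.1, 24.7 and 20 CPM in N1OE, 49.8, 20.2, 17.5, 23.3 and 63.5 in marked controls, 115, 54, 65.5 and 51.6 in unmarked controls and 54.2, 80.6 and 79.3 CPM in N1KO. Its N1OE libraries overlapped marked controls and no others, and Trdn fell by 1.60 ± 0.44 on the log2 scale (limma adjusted p = 0.0298). Values of each library for these 3 genes, and for Mybpc2 and Actn3 above, are given because of their differences. Without N1OE replicate 2 the count was 1, with Tpm1 at an adjusted p of 0.0609 and Trdn at 0.106 (limma). Trdn also passed no longer without N1OE replicate 1 or control 9.

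Tropomyosins are abundant in smooth muscle. The 9 smooth muscle and pericyte genes summed to 900.2 to 1301 CPM in N1OE, 1696 to 3197 CPM in marked controls, 967 to 1729.7 CPM in unmarked controls and 962 to 1304 CPM in N1KO. Of these 9 genes 1 was higher and 1 lower in N1OE than in all controls, and none was at 0 throughout a group. Their median log2 difference was 0.04 against all controls, -0.14 against the marked set and 0.21 against the unmarked set. A large part of the sums came from Acta2 alone. Acta2, smooth muscle actin, was at 602 to 692 CPM in N1OE, 1541 to 3023 in marked controls, 627 to 1551 in unmarked controls and 592 to 1089.7 CPM in N1KO. The part of such cells in the tropomyosin differences was not tested. Endothelial markers summed to 42.4 to 87 CPM in N1OE and 39 to 119 CPM in N1KO, against 6.55 to 36.8 CPM in the 9 controls, which neither group overlapped. Of the 6 genes 2 were higher in N1OE and 3 in N1KO than in all controls, 4 and 3 than in the marked set, and 2 and 4 than in the unmarked set. In N1OE against marked controls 3 of 6 fibro-adipogenic and 2 of 6 macrophage genes were lower and 3 of 8 satellite cell genes higher. In N1KO against unmarked controls 3 of 6 fibro-adipogenic genes and 1 of 6 macrophage genes were higher. The part of these cells in the members' values was not tested either.

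Set by set, the N1OE differences were not alike. Against marked controls 5 members rose and 2 fell of 40, with 7.53% of all tested genes higher and 5.93% lower, and the median member difference was 0.32 beside 0.06 over all tested genes. The number that fell was thus near the background. Those that rose were Mybpc2 at 4.74 ± 0.91 (limma adjusted p = 0.00092), which had no read in 2 marked controls, Actn3 at 2.24 ± 0.48 (limma adjusted p = 0.0026), the slow myosin-binding protein C Mybpc1 at 1.51 ± 0.41 (limma adjusted p = 0.0144), the myomesin Myom1 at 1.85 ± 0.50 (limma adjusted p = 0.0147) and Tnnt1 at 1.36 ± 0.45 (limma adjusted p = 0.047), a call lost in 11 of 16 fits that left out 1 library, with adjusted p up to 0.14 (limma). All 9 tested thick filament and M-band genes had positive differences. Those that fell were Tpm2 at -1.63 ± 0.32 (limma adjusted p = 0.00119) and Tpm1 at -1.21 ± 0.34 (limma adjusted p = 0.0183). Without marked control 4 the count was 11, of which 8 were higher. Trdn did not pass here, at -1.09 ± 0.40 (limma adjusted p = 0.0787).

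Against unmarked controls 21 of 40 fell and none rose, where 9.63% of all tested genes fell. For 21 members every N1OE library lay below every unmarked control, against 10.7% of all tested genes. The median was -1.48 beside 0.07 over all tested genes. Tpm2 fell by 2.88 ± 0.34 on the log2 scale (limma adjusted p = 1.76e-05), Tnnt1 fell by 3.12 ± 0.48 on the log2 scale (limma adjusted p = 0.000137) and Ckm fell by 2.59 ± 0.46 on the log2 scale (limma adjusted p = 0.00061). Tpm1 was at -2.02 ± 0.36, Trdn at -2.24 ± 0.43, the Z-disc protein Ldb3 at -2.06 ± 0.41, Mylpf at -2.39 ± 0.52, Des at -1.96 ± 0.44, Atp2a1 at -2.08 ± 0.49, Klhl41 at -2.17 ± 0.51, Myoz1 at -2.74 ± 0.70 and Neb, nebulin, at -1.39 ± 0.37 on the log2 scale, all past the threshold. Without unmarked control 5 the count was 13. This comparison and the one with the marked set share the N1OE libraries and are not independent. Of the 40 members, 23 had an N1OE mean above the marked and below the unmarked controls, 15 were below both and 2 above both. In Tpm2 and Tpm1 N1OE passed as lower against either set.

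Pathway genes outside the list that fell in N1OE against all controls were Fhl1 at -1.99 ± 0.43 (limma adjusted p = 0.00666), Jph2, which ties the reticulum to the membrane, at -1.27 ± 0.30 (limma adjusted p = 0.0127), and the muscle enolase Eno3 at -2.58 ± 0.36 (limma adjusted p = 0.000145), each the only call of its list of 29, 19 and 10 tested genes. Of 9 myogenic transcription factors 1 rose, Pax3 at 2.27 ± 0.52 (limma adjusted p = 0.0105). Fhl1, Jph2 and Eno3 were also lower against the marked controls, at -2.54 ± 0.38 (limma adjusted p = 5.84e-05), -1.54 ± 0.31 (limma adjusted p = 0.00141) and -3.0 ± 0.33 (limma adjusted p = 1.93e-06), and Eno3 against the unmarked ones at -2.06 ± 0.35 (limma adjusted p = 0.000461). Set by set, 5 of 29 other sarcomere genes, 2 of 19 excitation genes and 1 of 10 energy genes were higher than in marked controls and 1 of each list lower. Of the myogenic factors 4 were higher there, among them Myod1 at 2.36 and Pax7 at 1.81, and none lower. Against unmarked controls 8 of 29, 8 of 19 and 7 of 10 were lower and none higher, and of the factors 3 were lower, with Myf6 at -3.51, and 1 higher. Of the 6 myosin heavy chains none passed against all controls. Against the marked set Myh1 fell by 2.07 ± 0.36 on the log2 scale (limma adjusted p = 0.000282) and Myh2 fell by 2.13 ± 0.64 on the log2 scale (limma adjusted p = 0.0282), and slow Myh7 rose by 5.03 ± 1.34 on the log2 scale (limma adjusted p = 0.0128).

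**Figure D4:**
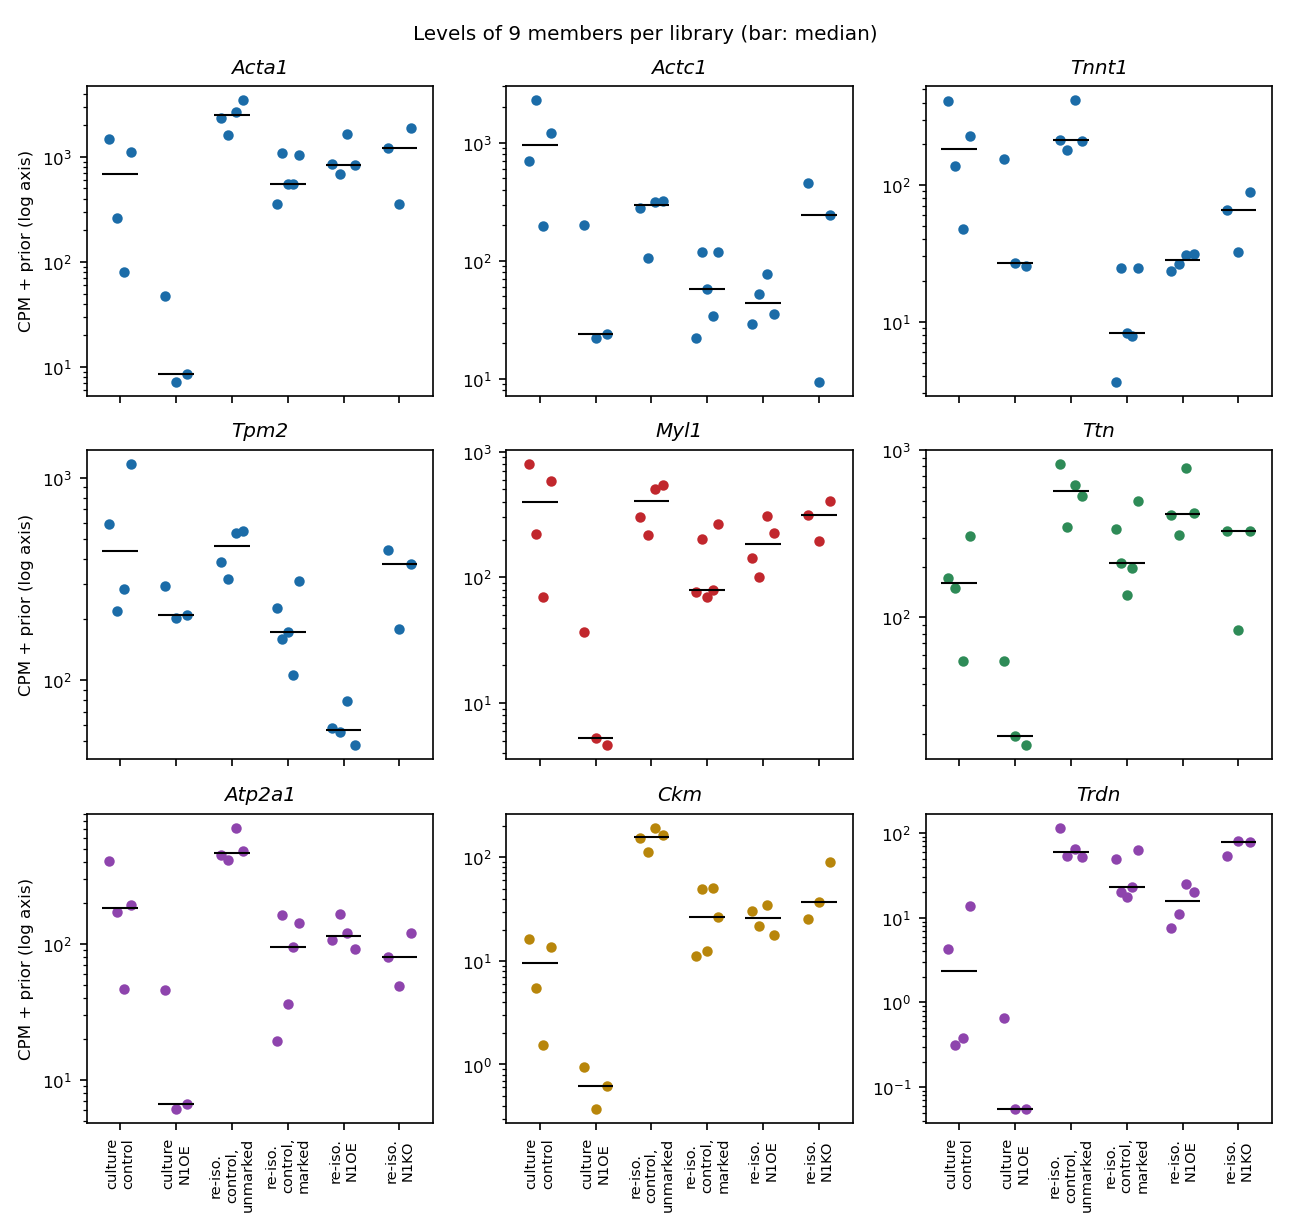
The CPM plus the prior count, on a log axis, of 9 members in each of the 23 libraries, with the re-isolated controls split into unmarked and marked ones. Points are single libraries and bars are medians; the 4 re-isolated N1OE points for Tpm2 lie at 47.7 to 78.9 CPM, below the other 12 re-isolated points, which start at 107 CPM, and for Atp2a1 and Ckm the 4 unmarked controls lie above all other re-isolated libraries.

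Loss of Notch1 gave no call among these genes against all 9 controls. Of 40 tested members none passed (limma), where 0.657% of all tested genes passed in either direction. At an unadjusted p under 0.05 there were 2, Smyd1, a methyltransferase needed for myosin assembly, at -1.15 ± 0.51 (limma adjusted p = 0.381) and Srl, sarcalumenin of the reticulum, at -1.07 ± 0.51 (limma adjusted p = 0.431), and limma-voom on the recovered reads called 0. The median was -0.28 beside 0.01. Against the marked controls 2 rose and none fell, where 3.84% of all tested genes rose: Tnnt1 rose by 2.41 ± 0.49 on the log2 scale (limma adjusted p = 0.00635) and Tcap, the titin cap, rose by 2.08 ± 0.50 on the log2 scale (limma adjusted p = 0.0177). The number that rose was thus near the background of this comparison, and the median member difference was 0.67 beside 0.03 over all tested genes. This count was 6 without marked control 9, 4 without N1KO replicate 2 and 1 without N1KO replicate 3, and with the 2 groups fitted alone it was 0.

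Against the unmarked controls 8 fell and none rose, where 2.71% of all tested genes fell, and the median was -1.36 beside 0.01. Atp2a1 fell by 2.69 ± 0.53 on the log2 scale (limma adjusted p = 0.00307), Srl fell by 1.93 ± 0.43 on the log2 scale (limma adjusted p = 0.00812) and Klhl41 fell by 2.26 ± 0.55 on the log2 scale (limma adjusted p = 0.0157). The others were Smyd1 at -1.90 ± 0.47, Tnnt1 at -2.08 ± 0.51, Ckm at -1.79 ± 0.49, Des at -1.68 ± 0.48 and Neb at -1.33 ± 0.40. This count was 5, 4 and 5 without unmarked controls 2, 5 and 6, and it was 1 without N1KO replicate 2 and 16 without N1KO replicate 3. Of the 40 members 27 had an N1KO mean above the marked and below the unmarked controls, 8 were below both sets and 5 above both. Tnnt1 passed in opposite directions against the sets. N1KO had the highest summed fibro-adipogenic markers of the re-isolated groups, given above, and their part was not tested. No gene of the 5 pathway lists passed in N1KO against all controls (limma). Against the marked set 1 sarcomere gene was lower, 1 excitation gene and 1 myogenic factor were higher, and energy genes gave 1 call each way, Mb, myoglobin, at 3.66 and Eno3 at -1.73. Against the unmarked set 2 of 29 sarcomere genes, 4 of 19 excitation genes, 5 of 10 energy genes and 2 of 9 myogenic factors were lower, with Myod1 at -3.70, and none was higher.

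Set directly against each other, N1OE and N1KO share no control. Of 40 members 3 were lower in N1OE and none higher, where 4.43% of all tested genes were lower, and the median was -0.22 beside 0.07. They were again Tpm2, which was lower by -2.39 ± 0.49 (limma adjusted p = 0.00471) on the log2 scale, Trdn at -2.30 ± 0.56 (limma adjusted p = 0.0143) and Tpm1 at -1.54 ± 0.45 (limma adjusted p = 0.0408). The Tpm1 call was lost in 6 of 16 fits that left out 1 library. Without N1KO replicate 2, or with all listed genes tested, 1 member passed, and with these 2 groups fitted alone 7 did, 2 of them higher in N1OE. Actn3 and Mybpc2 had positive differences of 1.74 ± 0.79 (limma adjusted p = 0.188) and 2.56 ± 1.78 (limma adjusted p = 0.399), which did not pass. Of 29 other sarcomere genes 3 were higher in N1OE and 1 was lower. The higher ones were Klhl31 at 1.92 ± 0.41 (limma adjusted p = 0.006), the filamin Flnc at 1.94 ± 0.51 (limma adjusted p = 0.0243) and Pdlim7 at 1.38 ± 0.37 (limma adjusted p = 0.026). Of the excitation genes Mrln, a peptide that restrains the SERCA pump, was higher at 3.21 ± 0.89 (limma adjusted p = 0.0308). Among markers, 2 of 6 fibro-adipogenic and 1 of 6 macrophage genes were lower in N1OE, and 1 of 8 satellite cell genes was higher. These groups also differed in the ratio of genes with 1 and 2 reads, at 4.18 to 6.82 in N1OE and 1.25 to 1.40 in N1KO. The part of these markers and of this ratio was not tested.

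Re-isolated and cultured controls differed in both directions, with setting and kit joined. Of 40 tested members 9 were higher and 14 lower after re-isolation, where 24.1% of all tested genes were higher and 33.9% lower. The median member was at -0.70 beside -0.23 over all tested genes. The counts were thus near the background of this comparison. Median ratio scaling moved the median of all genes to 0.03, and the number of members called to 22. Trdn was at 4.23, 0.262, 0.325 and 13.7 CPM in the cultured controls, below every re-isolated control, and it rose by 4.73 ± 0.83 on the log2 scale (limma adjusted p = 0.000189). Casq1, the fast calsequestrin, rose by 3.22 ± 0.69 on the log2 scale (limma adjusted p = 0.001), Tcap rose by 4.32 ± 0.94 on the log2 scale (limma adjusted p = 0.00114), the channel subunit Cacng1 rose by 2.37 ± 0.62 on the log2 scale (limma adjusted p = 0.0042) and Ckm rose by 3.08 ± 0.81 on the log2 scale (limma adjusted p = 0.00445). Lower after re-isolation were the myomesins Myom3 at -3.88 ± 0.75 (limma adjusted p = 0.000422) and Myom2 at -2.18 ± 0.48 (limma adjusted p = 0.00124), Cacna1s at -2.76 ± 0.57 (limma adjusted p = 0.000744), Smyd1 at -2.28 ± 0.52 (limma adjusted p = 0.00152), Tnnt3 at -2.09 ± 0.48 (limma adjusted p = 0.00168), Actc1 at -2.88 ± 0.74 (limma adjusted p = 0.00364) and Tpm1 at -1.31 ± 0.35 (limma adjusted p = 0.00462). Of 9 tested members of fast fibres 3 were higher and 1 lower, and of 6 slow or cardiac and 3 developmental and cardiac members none was higher and 4 were lower. With the unmarked controls alone 14 were higher and 9 lower, and with the marked ones alone 6 were higher and 20 lower, so the balance of directions follows the set chosen. Markers of other cells differed as well: 6 of 6 fibro-adipogenic, 5 of 6 macrophage, 7 of 9 smooth muscle and pericyte, 6 of 8 satellite cell and 1 of 6 endothelial genes were higher in the re-isolated controls. Their part in the members' differences was not tested.

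Isoform pairs were read as ratios per kilobase within a library. Acta1 over Actc1 was 0.121 to 2.24 in cultured controls and 0.247 to 0.379 in cultured N1OE. It was 8.78 to 17.2 in the 9 re-isolated controls, 13.9 to 30.3 in N1OE and 2.75 to 39.2 in N1KO, so that no re-isolated library overlapped a cultured one. Casq1 over Casq2 was 0.0568 to 0.195 in cultured controls and 0.369 to 2.05 in re-isolated ones, also apart. Actn3 over Actn2, its counterpart of all fibre types, was 0.175 to 1.19 in cultured controls. The ratio was 8.56 to 18.7 in re-isolated N1OE, while marked controls had 0.97 to 8.66, unmarked ones 3.44 to 5.55 and N1KO 3.46 to 5.83, so that only 1 marked control reached the lowest N1OE library. Other pairs went differently. Mylpf over Myl4 was 8.24 to 28.1 in cultured and 0.662 to 11 in re-isolated controls, which overlapped, and 7.99 to 15.8 in cultured and 2.28 to 7.85 in re-isolated N1OE, which was lower throughout. Myl1 over Myl4 was 2.44 to 8.72 and 1.86 to 9.51 in the controls, with overlap, and 1.85 to 2.85 and 3.46 to 7.84 in N1OE, without. Tnnt3 over Tnnt2 was 33.9 to 54.9 in cultured and 1.6 to 3.6 in re-isolated N1OE, and in controls 3.54 to 8.91 and 1.79 to 17.3. A ratio shows unequal change and not which gene changed.

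N1OE cells were higher in most of these genes after re-isolation than in culture. Of 40 members 26 were higher and 4 lower, where 25.3% of all tested genes were higher and 33.0% lower. For 23 of all 43 members, among them the untested Myl2 and Tnnc2, every re-isolated library lay above every cultured one, against 26.7% of all tested genes. The median was 2.24 beside -0.23, and median ratio scaling moved the latter to -0.02. Acta1 rose by 6.04 ± 0.55 on the log2 scale (limma adjusted p = 1.001e-06), Mybpc1 rose by 6.17 ± 0.47 on the log2 scale (limma adjusted p = 2.09e-07), Actn3 rose by 5.69 ± 0.50 on the log2 scale (limma adjusted p = 7.71e-07), Ckm rose by 5.41 ± 0.45 on the log2 scale (limma adjusted p = 4.20e-07) and Ttn rose by 4.10 ± 0.44 on the log2 scale (limma adjusted p = 3.71e-06). Mybpc2 had 0 reads in the 3 cultured N1OE libraries and was at least 168-fold higher after re-isolation, with 3 reads set over that group. Tcap had 2 reads there, and the ratio was 624 with a 95% counting interval of 172.6 to 5160. Calcium genes that rose were Casq1 at 5.12 ± 0.54 (limma adjusted p = 3.59e-06) and Cacng1 at 2.71 ± 0.37 (limma adjusted p = 3.70e-05). Trdn was called higher too, but with 12, 0 and 0 reads in cultured N1OE its fitted log2 difference of 6.84 ± 0.80 depends on the prior count. Of marker genes, 6 of 6 fibro-adipogenic, 5 of 6 endothelial, 4 of 5 macrophage and 6 of 8 smooth muscle and pericyte genes were higher after re-isolation, and their part was not tested. Those lower after re-isolation were Tpm1 at -2.28 ± 0.37 (limma adjusted p = 0.000141), Tpm2 at -1.97 ± 0.31 (limma adjusted p = 0.000106), Tnnt3 at -2.04 ± 0.47 (limma adjusted p = 0.00226) and Myom3 at -1.94 ± 0.54 (limma adjusted p = 0.00778).

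**Figure D5:**
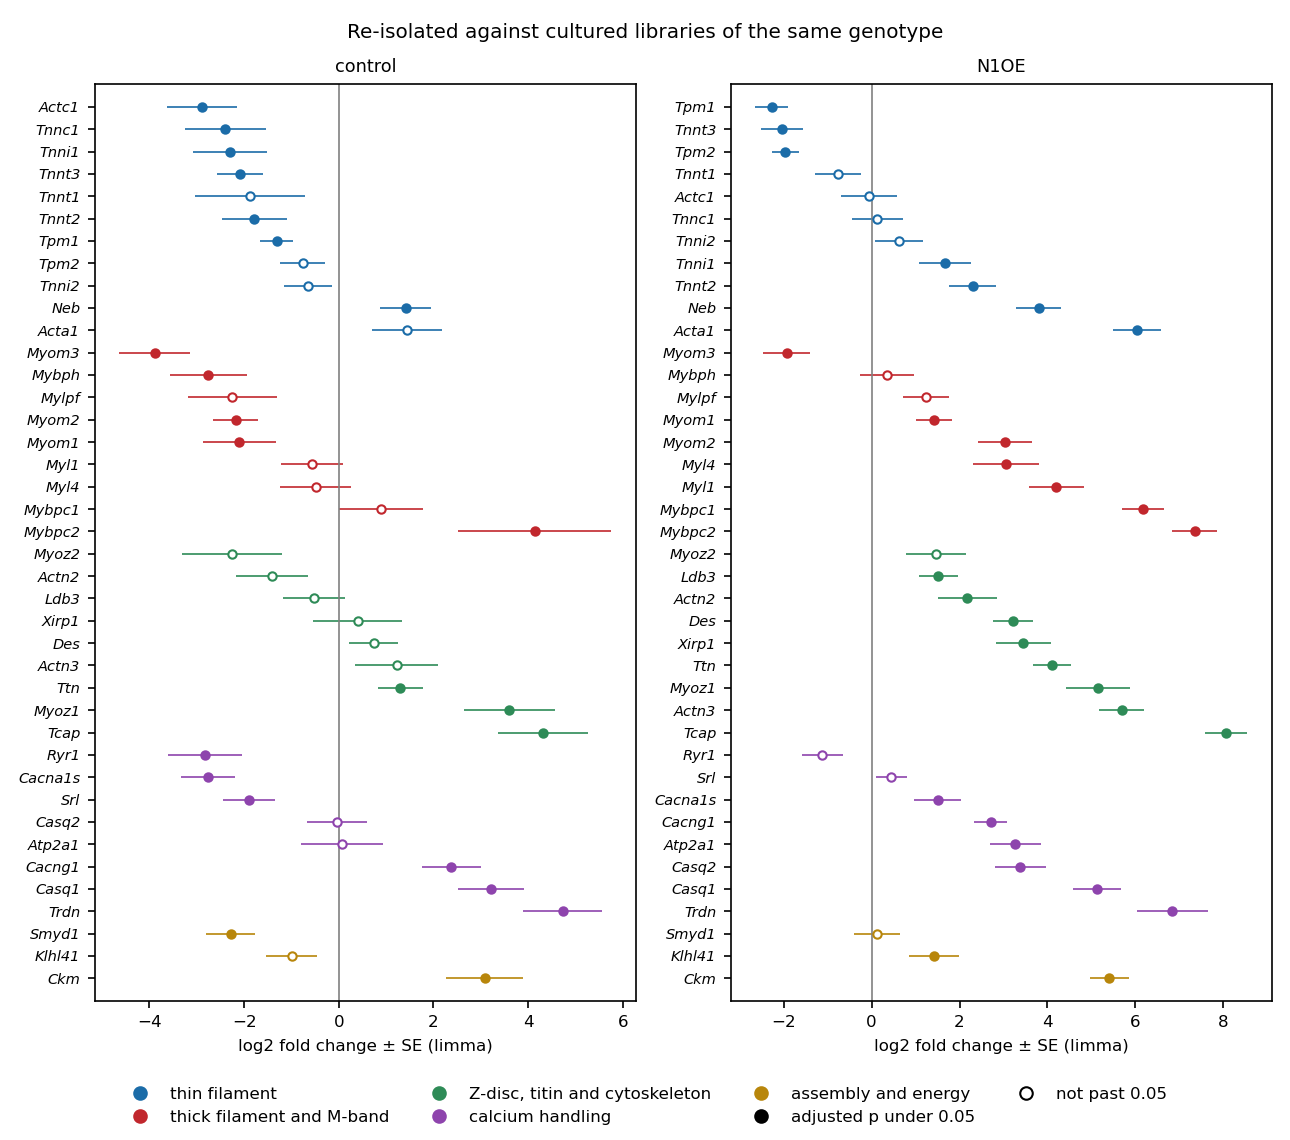
The log2 fold change of re-isolated against cultured libraries of the same genotype for the 40 tested members, in controls (left) and in N1OE (right), by role. Points are limma estimates with bars of 1 SE, filled where the adjusted p is under 0.05; in controls 9 filled points lie above 0 and 14 below, and in N1OE 26 lie above 0 and 4, Tpm1, Tpm2, Tnnt3 and Myom3, below.

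The difference between the N1OE effects in the 2 settings was tested itself. The log2 effect of N1OE was higher, that is less negative or positive, after re-isolation for 8 of 42 members and lower for none, where 2.36% of all tested genes were higher. The median difference of effects was 2.73 beside 0.04. The 8 were Myom2 at 5.21 ± 0.83 (limma adjusted p = 0.000512), Cacna1s at 4.26 ± 0.87 (limma adjusted p = 0.00527), Myl1 at 4.76 ± 1.01 (limma adjusted p = 0.0075), Mybpc1 at 5.28 ± 1.19 (limma adjusted p = 0.0117), Acta1 at 4.61 ± 1.11 (limma adjusted p = 0.0178), Tnnt2 at 4.08 ± 1.06 (limma adjusted p = 0.0295), Actn3 at 4.46 ± 1.22 (limma adjusted p = 0.0426) and Ttn at 2.80 ± 0.77 (limma adjusted p = 0.0452). The calls of Ttn, Actn3 and Tnnt2 were lost in 13, 10 and 7 of 23 fits that left out 1 library. Tpm2 and Tpm1 had differences of -1.21 ± 0.66 (limma adjusted p = 0.425) and -0.97 ± 0.53 (limma adjusted p = 0.425), the only negative ones among the 42, and neither passed. Of other genes of the pathway Pdlim3 at 4.04 ± 0.69 (limma adjusted p = 0.000951), Tmod1 at 3.21 ± 0.68 (limma adjusted p = 0.00707) and Myog at 4.37 ± 0.84 (limma adjusted p = 0.00327) were higher. This count was 5, 15 and 5 without cultured controls 1, 3 and 4, 4 and 3 without cultured N1OE replicates 2 and 3, and 5 without re-isolated N1OE replicate 2 or 3. Against the marked re-isolated controls alone it was 25, with all listed genes tested 4, and with limma-voom 3.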

How the data were processed

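RNA was sequenced in 23 libraries of 5 groups. The deposited values are log2 CPM per gene. Per the submitters' processing notes the authors used Trimmomatic 0.33, FastQC, featureCounts, edgeR and the mm10 build; the aligner, the annotation and the strand setting are not given in the sources used here. A prior of 0.0548 CPM had been added before the logarithm was taken, as the lowest deposited value of -4.19 shows, and with it taken off all values came out as whole reads within 0.05 reads. Per the labels' protocols, RNA of cultured cells was taken up in Trizol for TruSeq stranded mRNA libraries, while that of re-isolated cells was bound to beads from Buffer RLT and went through NEBNext Single Cell/Low Input and Nextera XT reagents. Exon lengths, overlaps and the actin coding sequences came from GENCODE M21, which held 21186 of the 21264 gene IDs, and promoter windows from RefSeq.

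The 43 members and all gene lists were chosen with earlier results of these data known. Groups were compared with limma 3.58.1 in R 4.3.3 on the log2 values as deposited, with eBayes and a trend, for genes of 1 CPM or more in 3 or more libraries of the fit. Tests were two-sided, with Benjamini-Hochberg adjustment over all tested genes and a threshold of 0.05. Cultured libraries were fitted alone, the 16 re-isolated libraries in 1 fit with the controls either together or split by the header suffix, and all 5 groups together for the difference of effects. Controls, and N1OE, of both settings were fitted separately for re-isolated against cultured cells. The method was tried on simulated counts with changes of known size, the same spread for all genes and no shift shared within a library. That setting differs from these data, in which members moved together by library, so it gives no error rate for them. Sums and ratios were computed with Python 3.11.15, pandas 2.3.3 and SciPy 1.17.1. Counting intervals cover counting error only.

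In each comparison up to 12 members with the smallest p-values, and the first of each of the 5 roles, were named with fold changes, and up to 3 genes were named per pathway list. Values of every library were given for 15 members chosen by function and for those said to be shown for their differences. Alternatives were pseudocounts of 1 and 5 CPM, no filter, a filter at 5 CPM, median ratio scaling, limma-voom on the recovered reads, a replicate block, other sets of controls, only the groups compared, and leaving out each library. An average of cultured N1OE replicates 2 and 3 was added after seeing the data.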

Additional observations from a re-analysis of the deposited data

Results flagged for a closer look

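In 4 of 128 groups of libraries tested, 1 library lay far from the others of its group, with the gap to its neighbour given as a share of the group's whole range on the log2 scale. Chance gives this in about 1 in 20 groups. Myl3, the slow and ventricular light chain, was at 1.38 CPM in re-isolated control 3 and next highest at 0.0602 CPM (share 0.773). Myoz2 was at 0.0606 CPM in re-isolated control 8, with the nearest control at 4.55 CPM (share 0.768). Fast troponin I, Tnni2, was at 34 CPM in re-isolated N1OE replicate 3, with the nearest N1OE library at 14.6 CPM (share 0.93). Des was at 121 CPM in re-isolated N1OE replicate 4, with the nearest at 286 CPM (share 0.86).

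The N1OE effect differed between re-isolated and cultured cells, in limma's test of the difference itself, for 8 members. On the log2 scale, re-isolated minus culture, the difference was 4.607 for Acta1, 4.764 for Myl1, 4.076 for Tnnt2, 2.796 for Ttn and 4.462 for Actn3. It was 5.281 for Mybpc1, 5.213 for Myom2 and 4.263 for Cacna1s. All 8 were positive, and setting and library kit cannot be told apart in them.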

How the results depend on the processing

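The counts of members called depended on the processing. For N1OE against control in culture (14), the count was 8 with a pseudocount of 5 CPM, 0 with no filter, 1 with limma-voom on the recovered reads, 2 without both libraries of another description form and 0 with N1OE replicates 2 and 3 averaged. With no filter, N1OE against N1KO gave 1, marked against unmarked controls 19, N1OE against marked and unmarked controls 3 and 12, N1KO against them 0 and 1, and the difference of N1OE effects 4. The difference of effects was also 3 with limma-voom, 25 with marked re-isolated controls alone and 3 with cultured N1OE replicates 2 and 3 averaged. With the control sets taken from the descriptions, marked against unmarked gave 0, N1OE against marked gave 1, which was lower where most of the 7 had been higher, N1OE against unmarked gave 3, and N1KO gave 0 and 0. A pseudocount of 5 CPM gave 13 for N1KO against unmarked controls. With only the groups compared, N1OE against N1KO gave 7 and N1KO against marked controls 0. Re-isolated against cultured controls gave 23 with unmarked controls alone, of which most were higher where most had been lower. The cause of these changes was not tested.

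Leaving out each library in turn gave 0 to 24 for N1OE in culture, 1 to 3 for re-isolated N1OE against all controls, 0 in every case for N1KO against all controls, and 1 to 4 for N1OE against N1KO. It gave 22 to 35 for marked against unmarked controls, 5 to 11 and 13 to 23 for N1OE against marked and unmarked controls, and 1 to 6 and 1 to 16 for N1KO. Re-isolated against cultured cells gave 19 to 24 in controls and 26 to 32 in N1OE, and the difference of effects 3 to 15.

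Correlations between the deviations of same-numbered libraries were 0.00203 to 0.278 in culture, all positive, with 1 of 3 pairs over 0.1. Between re-isolated controls and N1OE they were -0.15 to 0.0271. In culture the headers of same-numbered libraries also carry matching numbers, and the labels do not say whether these were prepared together. For most re-isolated controls the replicate number differs from the header number, so that the block there joins libraries by replicate number alone. With the replicate block the counts were 30 for N1OE in culture, 1 for re-isolated N1OE, 2 and 5 for N1OE against marked and unmarked controls, 0 and 0 for N1KO against them, and 4 for the difference of effects. The block gave 0 for N1KO against all controls, 2 for N1OE against N1KO, and 18 and 32 for the settings. Over the members named in each comparison and the alternatives, 3120 values kept their side of the threshold, 297 lost and 73 gained it, and 0 reversed. These members were named for small p-values in the same data. The values that kept their side include members that passed in neither fit.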
